A study of Mus musculus with 18 samples.

Results

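The RNA modification N6-methyladenosine (m6A) is placed, removed and read by a small set of proteins, and 10 of their genes were followed here in newly made RNA from mouse embryonic stem (mES) cells with and without Tet2, which encodes an enzyme that oxidizes 5-methylcytosine. The members were found by symbol, after the deposited Ensembl identifiers were matched without their version to GENCODE M21, and all 10 were found among 54446 gene rows. They are the writer genes Mettl3, Mettl14, Wtap and Rbm15, the eraser genes Fto and Alkbh5, and the reader genes Ythdc1, Ythdf1, Ythdf2 and Ythdf3. WT and Tet2-KO mES cells were given 1 mM 5-ethynyl uridine (EU), a uridine analogue that is built into RNA as it is made, for 10, 20 or 40 min, and the RNA that carried it was pulled down for sequencing. With 3 replicates at each time in each genotype, there were 6 groups and 18 libraries. Both genotypes grew in the same medium with the inhibitors CHIR99021 at 3 µM and PD0325901 at 1 µM, and were seeded 42 h before labelling. The methods name a single WT line and a single Tet2-KO line that was received as such, so replicates were separate dishes of cells. The p-values rest on the spread between dishes and not between knockout clones, with a limit on the spike-in scale given below.

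METTL3 carries the catalytic site for m6A on mRNA, and METTL14 is its partner, which helps to hold the RNA. WTAP brings this pair to nuclear speckles, and RBM15 binds RNA and helps to recruit the complex to its sites. FTO and ALKBH5 are demethylases that take the methyl group off again. Proteins with a YTH domain bind m6A directly, YTHDC1 in the nucleus, where it acts in splicing, export and on RNAs bound to chromatin, and YTHDF1, YTHDF2 and YTHDF3 in the cytoplasm, where they act on translation and decay of mRNA.

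Levels are given on 2 scales. On the spike-in scale the reads of a gene are divided by those of the ERCC transcripts, synthetic RNAs added in proportion to total RNA, and are printed per 1000 ERCC reads. On the share scale they are divided by the reads on all genes, adjusted by edgeR's TMM factors, and are printed as CPM (reads per 1000000 gene reads). The spike-in scale therefore gives new RNA per amount of total RNA and not per cell, and fewer transcribing cells and less new RNA per cell cannot be told apart. The share scale leaves out anything that moves all genes of a library together. On the spike-in scale an error in the ERCC reads of a library is shared by all its genes. The edgeR test pools the spread over genes as if they were separate, so p-values on that scale can be smaller than the dishes of a group support.

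Gene reads ranged from 17931614 to 23069143 per library and ERCC reads from 44162 to 512186. The members took between 434 and 9553 reads in a library. Reads on Tet2 were present in all libraries labelled Tet2-KO, at 9730 to 13011 per library against 13117 to 17092 in WT, and since the loss of an exon cannot be seen in a sum over the gene body, Tet2-KO stands here for the label. In the mean over the labelling times Tet2 was lower on the share scale, at a log2 fold change of −0.16 ± 0.012 (SE, edgeR adjusted p = 1.88e-13). On the spike-in scale it was higher, at 0.54 ± 0.049 (edgeR adjusted p = 2.42e-24). Of 10 stem cell markers, 9 were tested, and Sox2 was listed at 0 in every library. Sox2 lies within Sox2ot on the same strand. The summed share of this list was 3149 to 3386 CPM in WT and 2367 to 2501 CPM in Tet2-KO, with no overlap. Of the 9 tested, 6 were lower in share, 2 higher and 1 not called. Zfp42 was at a log2 fold change of −2.21 ± 0.018 (SE) on the share scale (edgeR adjusted p = 4.96e-41), Pou5f1 at 0.20 ± 0.029 (edgeR adjusted p = 6.35e-07) and Esrrb at −0.018 ± 0.011 (edgeR adjusted p = 0.169). The summed share of 10 feeder fibroblast markers was 35.7 to 78.2 CPM in WT and 32.2 to 56.4 CPM in Tet2-KO, and that of 6 primitive endoderm markers was 14.7 to 20.9 and 15.2 to 19.2 CPM. The part of the marker difference in the members' values was not tested.

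How much of a gene was counted bears on its level. Among genes that lie wholly within a protein-coding gene with more than 2000 reads, 3654 of 3658 on the same strand were at 0 in all libraries, against 806 of 3703 on the opposite strand. The counts thus behaved as sums over whole gene bodies, introns included, by strand, with reads in a stretch shared by genes of the same strand given to neither. Levels between genes were for this reason compared per kb of span that a member shares with no other gene on its strand.

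The members differ widely in size and place. In mm10, Fto spans chr8:91313525-91668439 on the plus strand, and its 355 kb hold 4 small genes on its own strand, all at 0 reads. Rbm15, at chr3:107325421-107333673 on the minus strand, is the shortest at 8.25 kb, of which 7.42 kb are exonic. Mettl14 (chr3:123368297-123386108, minus) and Ythdf3 (chr3:16183212-16217037, plus) are on the same chromosome. Mettl3 (chr14:52294841-52305128, minus) overlaps Tox4 tail to tail on the opposite strand, with 933 exonic bases in common. Ythdc1 (chr5:86804221-86836659, plus) shares its first 12.9 kb with the lincRNA Gm43055 on the same strand, which leaves 19.6 kb of its 32.4 kb to be counted. The others are Wtap at chr17:12966796-12994169 (minus), Alkbh5 at chr11:60536381-60558512 (plus), Ythdf1 at chr2:180904377-180920949 (minus) and Ythdf2 at chr4:132184912-132212303 (minus).

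Promoter windows were taken from RefSeq on GRCm38.p6, from 250 bases before to 50 bases after the annotated start, and 8 of the 10 members had one. Those of Wtap and Rbm15 are shown because these genes had the highest and the lowest log2 fold change of share between the genotypes, and that of Fto because the start of Rpgrip1l lies 263 bases away on the other strand, so that the RefSeq windows of the 2 genes overlap. They are chr17:12992494-12992793 (minus strand, the first of 3 windows of Wtap), chr3:107333240-107333539 (minus) and chr8:91313275-91313574 (plus), each written 5′ to 3′ on the strand of its gene. Capitals mark CCAAT or GGGCGG on either strand.
Wtap: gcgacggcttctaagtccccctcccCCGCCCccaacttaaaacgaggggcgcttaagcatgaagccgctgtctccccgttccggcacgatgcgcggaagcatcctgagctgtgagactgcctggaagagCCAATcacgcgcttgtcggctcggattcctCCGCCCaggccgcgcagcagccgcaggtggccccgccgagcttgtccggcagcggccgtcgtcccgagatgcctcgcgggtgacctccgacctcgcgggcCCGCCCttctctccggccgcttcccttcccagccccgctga
Rbm15: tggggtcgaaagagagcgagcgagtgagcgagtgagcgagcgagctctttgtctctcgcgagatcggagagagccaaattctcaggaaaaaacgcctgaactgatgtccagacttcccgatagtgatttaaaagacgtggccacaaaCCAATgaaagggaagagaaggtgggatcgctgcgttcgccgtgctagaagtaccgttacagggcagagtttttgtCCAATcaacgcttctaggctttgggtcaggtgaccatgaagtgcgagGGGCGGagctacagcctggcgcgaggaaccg
Fto: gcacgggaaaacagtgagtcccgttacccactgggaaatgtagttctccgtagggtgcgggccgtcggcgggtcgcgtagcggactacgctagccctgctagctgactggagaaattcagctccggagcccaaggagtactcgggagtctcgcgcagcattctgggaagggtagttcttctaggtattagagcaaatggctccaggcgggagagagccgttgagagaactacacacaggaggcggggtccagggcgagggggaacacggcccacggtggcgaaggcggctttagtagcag
All windows of the members were above the median in CpG, with 17 to 48 CpG dinucleotides against a median of 7 over 32851 windows of the same length. The upper quartile of all windows was 20, and those of Mettl3 (17) and Alkbh5 (18) lay below it. GGGCGG, the GC box, was in the windows of 6 of 8 members (Wtap, Rbm15, Alkbh5, Ythdc1, Ythdf1 and Ythdf2) and in 35.7% of all windows. CCAAT was in those of 4 (Wtap, Rbm15, Alkbh5 and Ythdf1) and in 37.4% of all windows. CCGGAAG, a core for ETS factors, was in that of Mettl3 alone among the 8 and in 8.86% of all windows, and the E-box CACGTG in that of Ythdf1 alone and in 7.15%. GCATGCGC, TGACGTCA, TATAAA and AAGATGGC were in none of the members' windows and in 2.71%, 1.79%, 13.6% and 2.75% of all. The Fto window held none of the 8 motifs searched, on either strand.

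Per kb, the order of the members was nearly the same in all 6 groups. Rbm15 was first in each group, at 16.2 ± 0.534 CPM per kb (SD, n = 3) in WT at 10 min and 14.9 ± 0.551 in Tet2-KO. Ythdc1 was second, at 12.0 ± 0.511 and 12.5 ± 0.170. Fto, with the most reads of all members, was last per kb, at 1.03 ± 0.019 in WT and 1.22 ± 0.0059 in Tet2-KO at 10 min, below Mettl3 at 2.56 ± 0.0391 and 2.41 ± 0.213. Exons make up 7.42 of the 8.25 kb of Rbm15 and 13.0 of the 355 kb of Fto. The part of exon content in the order was not tested. Mettl14, partner of METTL3, was seventh throughout, and lay above Mettl3 in all groups without overlap. Alkbh5 was eighth and Mettl3 ninth in every group, and their libraries overlapped at 10 min in both genotypes and at 20 min in WT. Wtap, Ythdf1, Ythdf2 and Ythdf3 held ranks 3 to 6 and changed places among themselves. Ythdf1 and Ythdf2 overlapped in WT at 10 and 40 min, Ythdf2 and Ythdf3 in Tet2-KO at 10 min, Wtap and Ythdf3 in Tet2-KO at 20 min, and Ythdf1 and Mettl14 in Tet2-KO at 10 min.

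The first comparison asked whether new RNA of the m6A genes differed between the genotypes per amount of total RNA. All 10 were higher in Tet2-KO in the mean over the labelling times, by 0.57 to 0.89 on the log2 scale, at edgeR adjusted p under 0.05. At no labelling time did the libraries of the genotypes overlap for any member. How many of all genes tested were separate in this way was not counted. The rise followed the libraries as a whole: 80.5% of the 19910 genes tested were called higher, with a median log2 fold change of 0.70, beside 0.76 over the members. The members' rise was thus close to that of all genes.

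Among the writers, Mettl3 gave 1.29, 1.37 and 1.19 reads per 1000 ERCC reads in WT at 10 min (replicates 1 to 3) and 2.61, 2.16 and 2.29 in Tet2-KO. At 40 min the values were 6.13, 6.54 and 5.33 in WT and 10.5, 8.51 and 9.69 in Tet2-KO. Every Tet2-KO library lay above every WT library of the same labelling time, and the log2 fold change over the times was 0.62 ± 0.067 (SE, edgeR adjusted p = 1.43e-18). At 20 min the difference was its smallest, 0.32 ± 0.12 (edgeR adjusted p = 0.0117). Mettl14 was at 3.15, 3.99 and 3.36 in WT at 10 min and at 6.89, 6.83 and 7.19 in Tet2-KO, and its log2 fold change over the times was 0.74 ± 0.056 (edgeR adjusted p = 1.33e-33).

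Wtap, the adaptor of the writer complex, had the highest log2 fold change of the members, 0.89 ± 0.052 (edgeR adjusted p = 2.02e-50), or 1.85-fold. It was at 8.35, 9.42 and 7.07 reads per 1000 ERCC reads in WT at 10 min against 17.4, 17.2 and 19.1 in Tet2-KO, and at 42.3, 45.6 and 43.7 against 84.7, 71.9 and 75.4 at 40 min. The genotypes were far apart at both times. Rbm15, the RNA-binding recruiter, had the lowest, 0.57 ± 0.052 (edgeR adjusted p = 3.16e-24), or 1.48-fold. It was at 6.53, 7.31 and 5.79 in WT at 10 min against 11.8, 10.5 and 12.8 in Tet2-KO, and at 40.1, 43.0 and 38.0 against 57.4, 51.4 and 56.0 at 40 min.

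Of the erasers, Fto was at 17.8, 18.9 and 15.7 reads per 1000 ERCC reads in WT at 10 min and at 40.8, 37.7 and 42.2 in Tet2-KO. At 40 min it was at 97.8, 106.8 and 94.5 against 191.5, 164.9 and 180.4. The lowest Tet2-KO library was well above the highest WT library each time, and the log2 fold change over the times was 0.87 ± 0.050 (edgeR adjusted p = 1.81e-51). Alkbh5, the other m6A demethylase, was at 3.18, 3.03 and 2.70 against 5.45, 4.80 and 6.26 at 10 min, and its log2 fold change was 0.69 ± 0.056 (edgeR adjusted p = 3.32e-29).

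Ythdc1, the nuclear reader, rose by a log2 fold change of 0.77 ± 0.050 (edgeR adjusted p = 6.57e-42), from 65.1 ± 3.23 (SD, n = 3) reads per 1000 ERCC reads in WT to 106.2 ± 8.71 in Tet2-KO at 40 min. Of the cytoplasmic readers, Ythdf1 rose least, by 0.67 ± 0.055 (edgeR adjusted p = 1.51e-29), and its levels at 40 min were 22.8 ± 1.23 and 34.8 ± 2.58. Ythdf2, which is best known for its part in mRNA decay, rose by 0.86 ± 0.052 (edgeR adjusted p = 1.35e-47), from 39.0 ± 1.15 to 65.4 ± 5.26 at 40 min. Ythdf3 rose by 0.85 ± 0.051 (edgeR adjusted p = 3.97e-48), from 64.9 ± 1.82 to 113.6 ± 10.3.

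**Figure D1:**
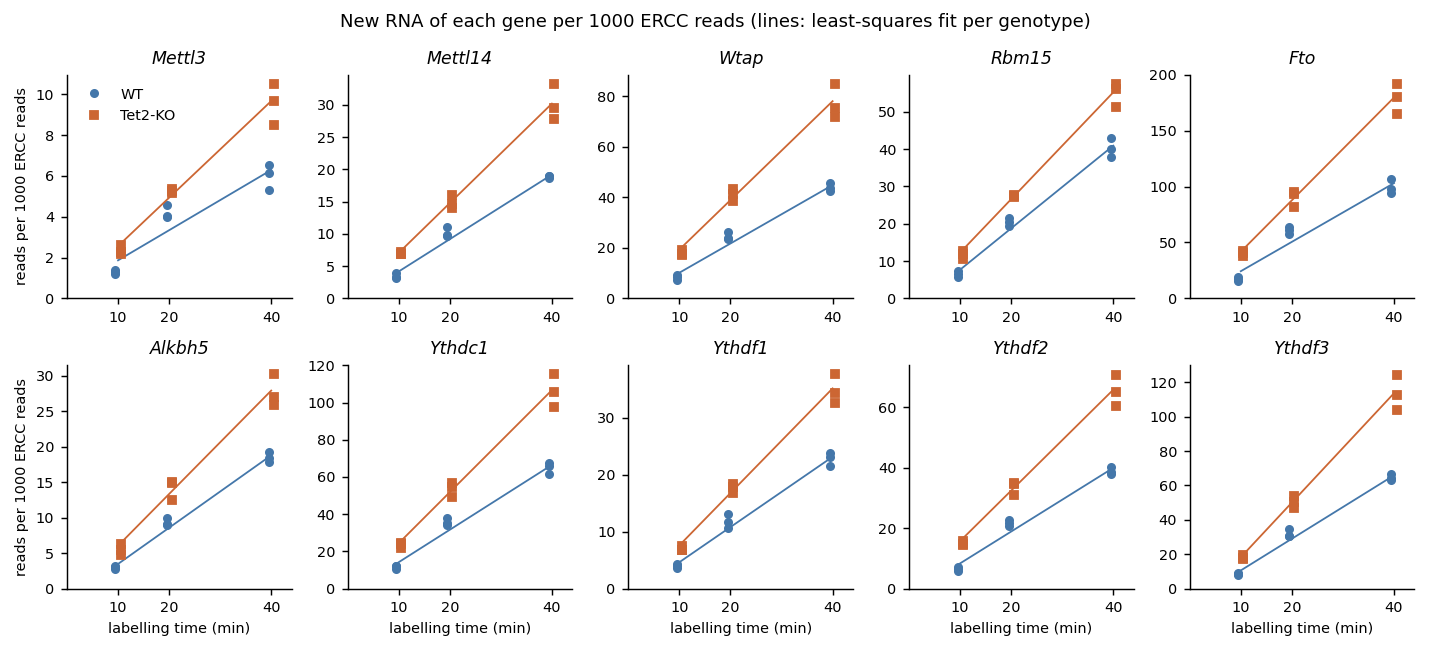
Reads per 1000 ERCC reads (y axis, linear from 0) of each of the 10 genes against labelling time in minutes, in WT (circles) and Tet2-KO (squares), 1 point per library and the least-squares line of each genotype. In all panels the Tet2-KO libraries lie above the WT libraries of the same time, and the Tet2-KO line is steeper.

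At single labelling times all 10 members were called higher in Tet2-KO on the spike-in scale, where 79.0% of all genes tested were called higher at 10 min, 53.7% at 20 min and 68.2% at 40 min. The log2 fold changes were largest at 10 min (0.82 for Ythdf1 to 1.20 for Fto), lower at 20 min (0.32 for Mettl3 to 0.74 for Wtap) and 0.44 to 0.84 at 40 min, the last range running from Rbm15 to Fto. The call of Mettl3 at 20 min was lost without WT replicate 2 of 20 min (edgeR adjusted p = 0.0503).

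The change of the genotype difference from 10 to 40 min was tested directly. It was below 0 for all 10 members, and 4 passed the test, beside 19.3% of all genes tested that were called lower. Ythdf2 changed by −0.46 ± 0.13 (edgeR adjusted p = 0.00522), Rbm15 by −0.39 ± 0.13 (0.0176), Fto by −0.36 ± 0.12 (0.0229) and Ythdc1 by −0.32 ± 0.12 (0.0461), all by edgeR's test. The median change over all genes was −0.29 and over the members −0.32. Only the call of Ythdf2 was kept whichever library was left out (edgeR adjusted p 0.000536 to 0.0304). The number of members called ran from 1 to 8: it was 1 without WT replicate 3 of 10 min, WT replicate 2 of 40 min, Tet2-KO replicate 3 of 10 min or Tet2-KO replicate 2 of 40 min, 2 without Tet2-KO replicate 1 of 10 min, 7 without WT replicate 2 of 10 min and 8 without Tet2-KO replicate 1 of 40 min.

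Levels per ERCC read grew with labelling time, and the slope of a line through the 9 libraries of a genotype was taken as the rate at which new RNA accumulated, with no test. Fto had the steepest slope, 2.63 ± 0.245 (SE, n = 9) reads per 1000 ERCC reads per minute in WT and 4.60 ± 0.223 in Tet2-KO, a ratio of 1.75 ± 0.184. The ratio of slopes was 1.72 ± 0.112 for Ythdf3 and 1.69 ± 0.143 for Wtap. Mettl3 had the shallowest slope, 0.148 ± 0.0215 in WT and 0.237 ± 0.0163 in Tet2-KO, with a ratio of 1.61 ± 0.258. Rbm15 had the lowest ratio, 1.29 ± 0.0791, from slopes of 1.11 ± 0.0551 and 1.43 ± 0.0513. The ratios of Mettl14 (1.54 ± 0.116), Ythdc1 (1.57 ± 0.125), Ythdf2 (1.58 ± 0.127), Ythdf1 (1.49 ± 0.109) and Alkbh5 (1.43 ± 0.102) lay between these, and the lowest and highest of them differed by less than the combined standard error. All 10 ratios were above 1 and within the middle quartiles of the genes tested, 1.27 to 1.97, around a median of 1.55. When the 40 min libraries were left out, the ratio of Mettl3 was 0.991, and those of the other 9 stayed above 1.

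The lines of 9 of 10 members met the level axis below 0 in each genotype, all but Mettl3. Ythdf3 lay farthest below, at −7.91 reads per 1000 ERCC reads in WT and −13.6 in Tet2-KO. The points did not all follow a line: at 20 min the mean level was above it for 10 of 10 members in both genotypes, by a factor of 1.09 (Alkbh5) to 1.26 (Mettl3) in WT and of 1.00 (Ythdf3) to 1.06 (Mettl3) in Tet2-KO. All genes of a library are divided by the same ERCC reads. How many of all genes tested did the same in either respect was not counted, so whether either is particular to the members was not tested.

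The second comparison asked how the genes differed between the genotypes as a share of new RNA. Here the members divided: 5 rose, Wtap, Fto, Ythdf2, Ythdf3 and Ythdc1, Rbm15 fell, and Mettl3, Mettl14, Alkbh5 and Ythdf1 did not pass the test in the mean over the labelling times. Of all genes tested, 28.6% were called higher and 27.9% lower. The members' median log2 fold change was 0.062, beside 0.0027 over all genes, and the members stood between the 35.6th and the 72.7th percentile of all genes. With the plain total of gene reads in place of TMM, 4 members were called higher and 3 lower: Ythdc1 was no longer called (0.037, edgeR adjusted p = 0.0590), and Mettl3 (−0.11, 0.0433) and Ythdf1 (−0.059, 0.0499) were called lower.

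Wtap was at 172, 178 and 158 CPM in WT at 10 min against 182, 193 and 191 in Tet2-KO, at 158, 165 and 164 against 200, 202 and 195 at 20 min, and at 178, 181 and 188 against 205, 203 and 197 at 40 min. The genotypes did not overlap at any time, and the log2 fold change was 0.20 ± 0.021 (edgeR adjusted p = 4.55e-10), or 1.15-fold. Its difference was largest at 20 min, 0.29 ± 0.036 (edgeR adjusted p = 3.30e-08), beside 0.16 at 10 min and 0.14 at 40 min.

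Fto was at 365, 358 and 351 CPM in WT at 10 min against 425, 425 and 422 in Tet2-KO, and at 412, 424 and 407 against 464, 467 and 471 at 40 min. These groups were again separate, by more than the range within either. The log2 fold change was 0.18 ± 0.014 (edgeR adjusted p = 2.36e-13). Rpgrip1l, a gene of the ciliary transition zone, starts 263 bases from Fto and runs the other way. In the mean over the times it was at −0.0091 ± 0.040 (edgeR adjusted p = 0.866). It was called lower at 10 min (−0.21 ± 0.070, edgeR adjusted p = 0.0145). At 20 min it was at 0.024 ± 0.071 and at 40 min at 0.16 ± 0.070 (edgeR adjusted p = 0.831 and 0.0721). Whether the 2 genes differed from each other was not tested. The antisense gene 4831440D22Rik within Fto had 2 to 14 reads a library and was at −0.16 ± 0.37 (edgeR adjusted p = 0.741).

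Rbm15 fell by 0.12 on the log2 scale (SE 0.025, edgeR adjusted p = 6.81e-05), while on the spike-in scale it rose with the other members. It was at 169, 171 and 164 CPM in WT at 40 min against 139, 145 and 146 in Tet2-KO, where the genotypes were separate, and at 146, 128 and 134 against 143, 129 and 128 at 20 min, where they overlapped. At 40 min the log2 fold change was −0.22 ± 0.043 (edgeR adjusted p = 5.65e-05), at 10 min −0.12 ± 0.043 (edgeR adjusted p = 0.0223) and at 20 min −0.025 ± 0.043 (edgeR adjusted p = 0.698). The call at 10 min was lost in turn without WT replicates 1 or 2 or Tet2-KO replicates 1 or 2 of 10 min (edgeR adjusted p 0.0517 to 0.125).

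Mettl3 and Mettl14, which form the catalytic pair, did not pass the test in the mean over the times. Mettl3 was at 26.4 ± 0.402, 27.9 ± 3.06 and 24.9 ± 1.68 CPM (SD, n = 3) in WT at 10, 20 and 40 min and at 24.8 ± 2.19, 25.5 ± 1.07 and 24.9 ± 0.747 in Tet2-KO, with overlap at all times (log2 fold change −0.072 ± 0.047, edgeR adjusted p = 0.193). Mettl14 was at 71.7 ± 6.09, 67.3 ± 1.68 and 78.5 ± 3.32 CPM in WT and 73.6 ± 2.97, 72.3 ± 2.83 and 78.6 ± 1.66 in Tet2-KO (0.047 ± 0.030, edgeR adjusted p = 0.190). Its libraries overlapped at 10 and 40 min, and at 20 min all of Tet2-KO (69.24 to 74.9) lay just above WT (65.9 to 69.21), a difference that did not pass the test (0.10 ± 0.053, edgeR adjusted p = 0.131). Tox4, which overlaps the end of Mettl3 on the other strand, fell by 0.22 on the log2 scale (SE 0.048, edgeR adjusted p = 0.000198), at 365 to 615 reads a library, against 434 to 624 for Mettl3.

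Ythdf2 was at 133, 135 and 131 CPM in WT at 10 min against 155, 161 and 157 in Tet2-KO, at 146, 141 and 142 against 161, 163 and 164 at 20 min, and at 160, 160 and 167 against 171, 171 and 170 at 40 min. Tet2-KO was above WT without overlap each time, and the gap narrowed. The log2 fold change over the times was 0.17 ± 0.017 (edgeR adjusted p = 4.35e-10), and went from 0.24 ± 0.030 at 10 min through 0.18 ± 0.030 at 20 min to 0.073 ± 0.030 at 40 min (edgeR adjusted p = 3.47e-08, 6.32e-06 and 0.0553). At 40 min it passed the test when any Tet2-KO library of 10 min, WT replicate 1 of 10 min or WT replicate 3 of 40 min was left out (edgeR adjusted p 0.0275 to 0.0490). The narrowing itself was −0.17 ± 0.043 (edgeR adjusted p = 0.00707). Ythdf2 was the only member called in that test on the share scale, where 6.12% of all genes were called lower. With the plain total of gene reads its value was −0.11 (edgeR adjusted p = 0.0829). Of the genes called in that test in either direction, 38.8% were higher with TMM and 63.7% with the plain total.

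Ythdf3 was at 177, 171 and 180 CPM in WT at 10 min against 186, 192 and 195 in Tet2-KO, and at 266, 266 and 278 against 301, 294 and 294 at 40 min. The genotypes were separate at all times, and the log2 fold change was 0.15 ± 0.017 (edgeR adjusted p = 2.86e-09). Its call at 10 min (0.12 ± 0.030, edgeR adjusted p = 0.00199) was lost with the plain total of gene reads (0.047, edgeR adjusted p = 0.204). Ythdc1 was at 234 ± 9.99, 237 ± 1.03 and 271 ± 6.81 CPM (SD, n = 3) in WT and 245 ± 3.32, 259 ± 4.65 and 277 ± 1.56 in Tet2-KO at 10, 20 and 40 min. The groups were separate at 20 min and overlapped at 10 and 40 min, and the log2 fold change over the times was 0.077 ± 0.016 (edgeR adjusted p = 0.000152). At 10 min it passed the test only without WT replicate 1 or Tet2-KO replicate 3 of that time (edgeR adjusted p = 0.00428 and 0.0450). Gm43055, which covers the first part of Ythdc1, had 2 to 25 reads a library and was at 0.39 ± 0.30 (edgeR adjusted p = 0.282).

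For Ythdf1 and Alkbh5 the estimated difference was not of the same sign at all labelling times. Ythdf1 was at 80.7, 82.2 and 79.5 CPM in WT at 10 min against 70.0, 76.7 and 73.9 in Tet2-KO, but at 79.3, 82.0 and 73.0 against 87.7, 83.4 and 86.8 at 20 min. It was lower at 10 min (−0.14 ± 0.046, edgeR adjusted p = 0.0156) and higher at 20 min (0.14 ± 0.046, edgeR adjusted p = 0.0164), with no overlap at either time. At 40 min Ythdf1 was at −0.060 ± 0.046 (edgeR adjusted p = 0.334), with overlap. Alkbh5 was at 61.0 ± 4.01 against 57.8 ± 4.32 CPM at 10 min, 61.8 ± 0.305 against 68.5 ± 2.91 at 20 min and 77.2 ± 0.682 against 72.2 ± 1.57 at 40 min, and only the 20 min difference passed the test (0.15 ± 0.052, edgeR adjusted p = 0.0213). The change from 10 to 20 min was not tested. That from 10 to 40 min did not pass the test for Ythdf1 or Alkbh5 (edgeR adjusted p = 0.538 and 0.925). Leaving out libraries ended the 10 min call of Ythdf1 once, without Tet2-KO replicate 1 of 10 min (edgeR adjusted p = 0.133), its 20 min call without WT replicate 3 or Tet2-KO replicates 1 or 3 of 20 min (edgeR adjusted p 0.0538 to 0.150) and that of Alkbh5 without WT replicates 1 or 3 or Tet2-KO replicates 2 or 3 of 20 min (edgeR adjusted p 0.0518 to 0.0986). Both 20 min calls were also lost with the plain total (edgeR adjusted p = 0.0703 for Ythdf1 and 0.0888 for Alkbh5) and without the filter on low counts (edgeR adjusted p = 0.0526 and 0.0577). With the plain total Alkbh5 was instead called lower at 10 min (−0.147, edgeR adjusted p = 0.0231). It was also called lower at 40 min when that time was fitted alone (−0.0957, edgeR adjusted p = 0.0489).

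**Figure D2:**
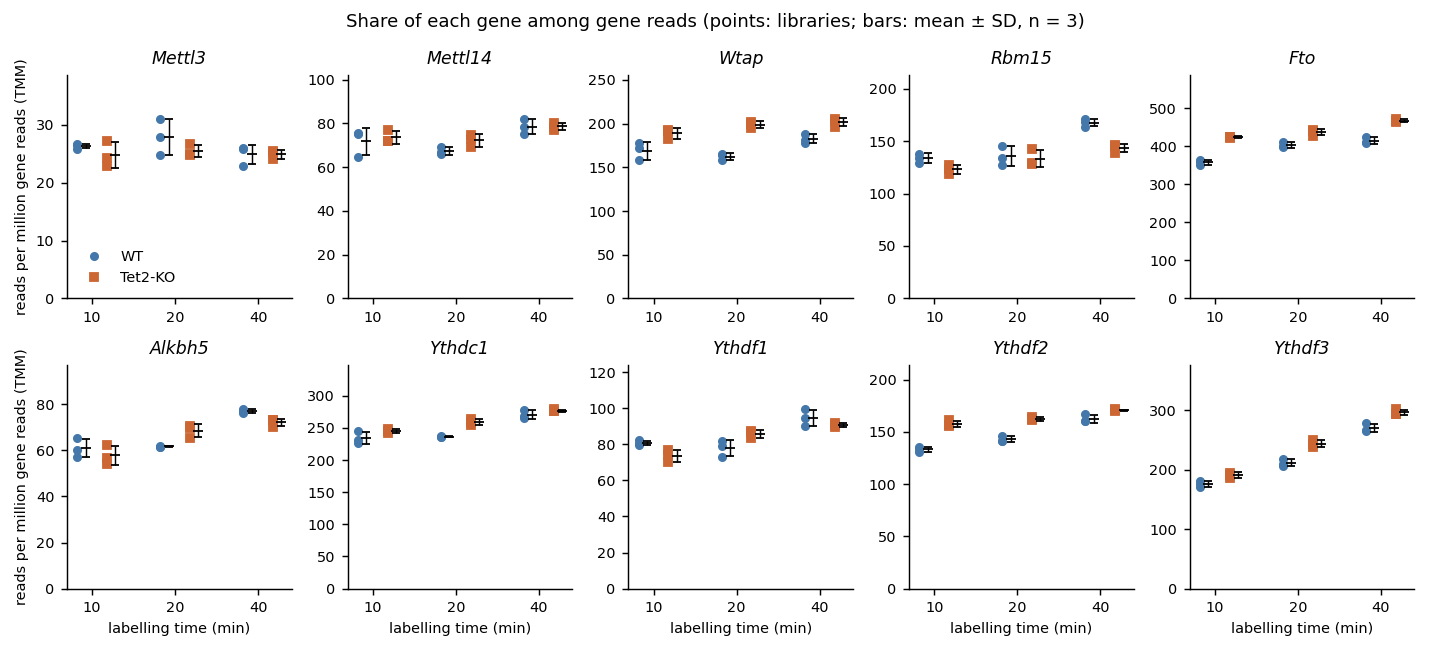
Share of each gene among gene reads (TMM-scaled CPM, y axis from 0) at 10, 20 and 40 min in WT (circles) and Tet2-KO (squares), 1 point per library, with mean ± SD (n = 3) beside each group. Tet2-KO is above WT at every time for Wtap, Fto, Ythdf2 and Ythdf3, and below WT for Rbm15 at 10 and 40 min.

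At 10 min 4 members were called higher (Wtap, Fto, Ythdf2 and Ythdf3) and 2 lower (Rbm15 and Ythdf1), where 22.5% of all genes were called higher and 21.4% lower. At 20 min 7 were called higher, the same 4 with Ythdc1, Ythdf1 and Alkbh5, and none lower, where 20.3% of all genes were higher and 18.2% lower. The count of members lower at 20 min was also 0 at an unadjusted p under 0.05 by edgeR, and 0 by DESeq2. At 40 min 3 were called higher (Wtap, Fto and Ythdf3) and Rbm15 lower, where 19.7% of all genes were higher and 18.6% lower.

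**Figure D3:**
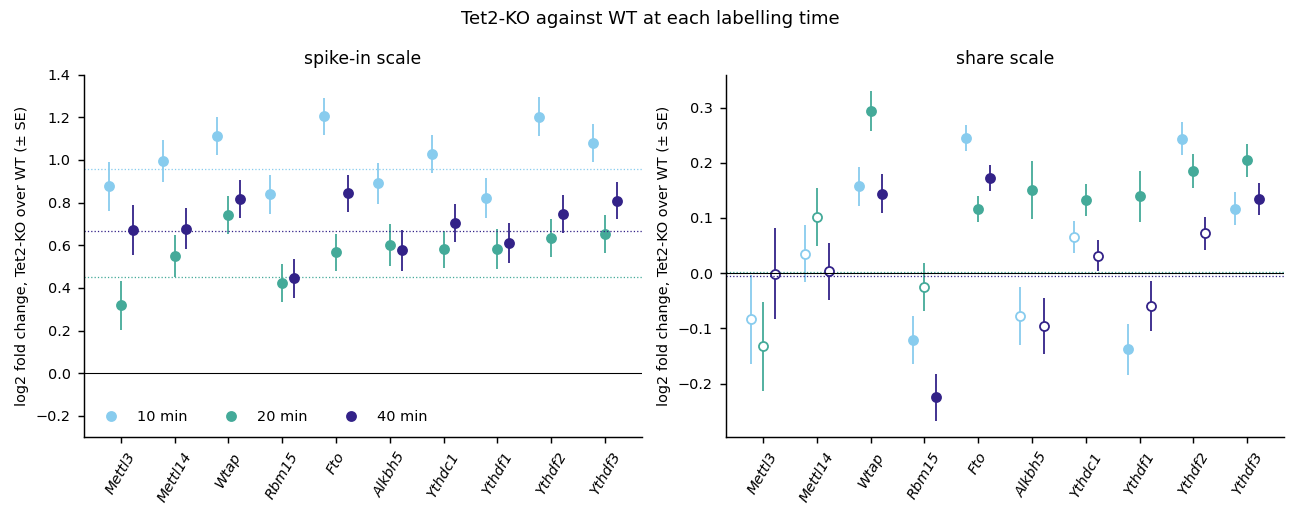
Log2 fold change of Tet2-KO over WT with its SE for each gene at 10, 20 and 40 min, on the spike-in scale (left) and the share scale (right). Filled points have an edgeR adjusted p under 0.05, open points do not, and dotted lines mark the median of all 19910 genes tested at each time. On the spike-in scale all points lie above 0, and on the share scale they fall on both sides of 0.

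The third comparison was between labelling times within a genotype, on the share scale. After 40 min a larger part of the captured RNA took up EU some time before, and after 10 min a larger part took it up just before. Averaged over the genotypes, 9 of 10 members took a larger share at 40 than at 10 min, all but Mettl3, where 26.0% of all genes were called higher. The members' median log2 fold change was 0.20, beside −0.030 over all genes. In WT the same 9 were called higher (22.8% of all genes), and in Tet2-KO 8, without Mettl14 (20.1% of all genes). The summed share of the 10 members was 1444 ± 19.7 CPM (SD, n = 3), 1527 ± 14.9 and 1743 ± 8.16 at 10, 20 and 40 min in WT and 1559 ± 11.5, 1687 ± 13.4 and 1823 ± 6.75 in Tet2-KO.

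Ythdf3 changed most of the members, by 0.62 ± 0.030 in WT (edgeR adjusted p = 9.35e-18) and 0.64 ± 0.030 in Tet2-KO (edgeR adjusted p = 1.07e-17), or 1.54-fold averaged over both. Its libraries ran from 171 to 195 CPM at 10 min, from 206 to 250 CPM at 20 min and from 266 to 301 CPM at 40 min, so the times were separate across both genotypes. It stood at the 95.8th percentile of all genes in this comparison. Alkbh5 followed with 0.33 ± 0.037 averaged over the genotypes (edgeR adjusted p = 2.85e-09), then Rbm15 with 0.27 ± 0.030 (2.58e-09) and Ythdf1 with 0.27 ± 0.033 (1.64e-08). Of the rest, Ythdf2 (0.20), Ythdc1 (0.19) and Fto (0.18) were alike in size, and Mettl14 (0.11) and Wtap (0.10) were lowest among those called. With the plain total of gene reads Mettl14 (0.041, edgeR adjusted p = 0.355) and Wtap (0.031, 0.305) were not called. The call of Mettl14 over both genotypes was also lost with at least 10 counts in every library (edgeR adjusted p = 0.0579) and with nuclear protein-coding genes only (0.0801). Under DESeq2 the calls of Mettl14 within WT (adjusted p = 0.0519) and of Wtap within Tet2-KO (0.0748) were lost, and the latter also without the filter on low counts (edgeR adjusted p = 0.0878). With at least 10 counts in every library, nuclear protein-coding genes only or the plain total, Mettl14 within WT (edgeR adjusted p 0.136 to 0.679), Wtap within WT (0.0894 to 0.860) and Wtap within Tet2-KO (0.112 to 0.253) were not called, and with the plain total neither was Ythdf2 within Tet2-KO (0.0582). Within WT the call of Mettl14 was lost without WT replicate 1 of 10 min or WT replicates 1 or 3 of 40 min (edgeR adjusted p 0.0753 to 0.312), and that of Wtap without WT replicate 3 of 10 or of 40 min (edgeR adjusted p of at least 0.0763). Within Tet2-KO the call of Wtap was lost without WT replicates 2 or 3 of 10 min, Tet2-KO replicate 1 of 10 min or Tet2-KO replicates 1 or 2 of 40 min (edgeR adjusted p 0.0561 to 0.198). Mettl3 was at −0.038 ± 0.057 (edgeR adjusted p = 0.605), and its libraries overlapped between the times in both genotypes.

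**Figure D4:**
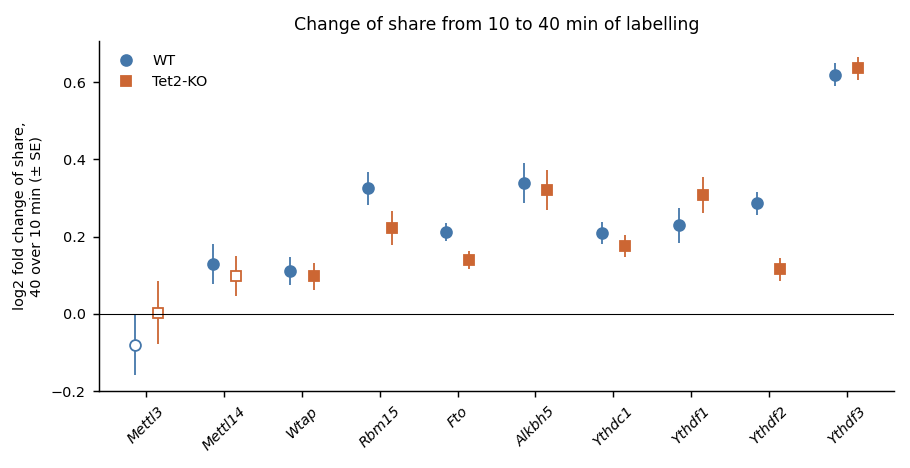
Log2 fold change of each gene's share from 10 to 40 min of labelling with its SE, in WT (circles) and Tet2-KO (squares). Filled points have an edgeR adjusted p under 0.05. Ythdf3 stands highest in both genotypes, and Mettl3 lies at about 0.

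Ratios of 2 members within a library depend on neither the spike-in nor the total. Of 5 ratios, 3 differed between the genotypes by an exact permutation test, two-sided, over 8000 exchanges of labels within labelling times. The p-values were adjusted over the 5 by Benjamini-Hochberg. How many ratios of other gene pairs differ in this way was not counted, so whether this is particular to the members was not tested. Of all genes, 28.6% were called higher and 27.9% lower in share. Fto over Alkbh5, the 2 erasers, was 5.27 to 6.67 in WT and 6.24 to 7.86 in Tet2-KO, a difference of 0.19 on the log2 scale (exact permutation adjusted p = 0.00792). The ratio was higher in Tet2-KO than the WT mean of its time in 7 of 9 libraries: at 10 min it was 5.88 ± 0.333 against 7.36 ± 0.570 and at 40 min 5.37 ± 0.155 against 6.47 ± 0.189, while at 20 min it was 6.52 ± 0.139 against 6.37 ± 0.157, with overlap.

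Ythdf2 over Ythdf1 was 1.64 to 1.94 in WT and 1.84 to 2.22 in Tet2-KO, a difference of 0.19 (exact permutation adjusted p = 0.00437), higher in 9 of 9 libraries. Its widest gap was at 10 min, at 1.65 ± 0.0041 against 2.15 ± 0.0620. Ythdf3 over Ythdf1 was 2.08 to 2.95 and 2.50 to 3.31, a difference of 0.17 (exact permutation adjusted p = 0.00437), also higher in 9 of 9 libraries. Both ratios were separate at 10 and 40 min and overlapped at 20 min, and they share Ythdf1. Ythdf3 over Ythdf2 differed by −0.015 (exact permutation adjusted p = 0.605), as Tet2-KO lay below WT at 10 min (1.21 ± 0.0294 against 1.32 ± 0.0546) and above it at 40 min (1.74 ± 0.0186 against 1.66 ± 0.0050). Mettl14 over Mettl3 was 2.77 on average in WT and 2.99 in Tet2-KO, a difference of 0.12 that did not pass the test (exact permutation adjusted p = 0.105). It passed without WT replicate 3 of 40 min (exact permutation adjusted p = 0.0222) and without Tet2-KO replicate 1 of 10 min (0.0478).

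**Figure D5:**
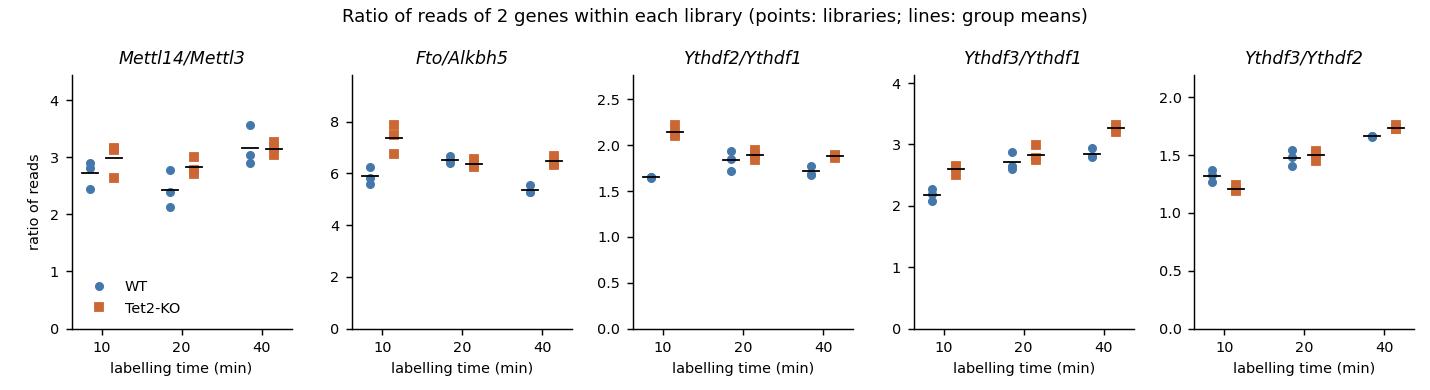
Ratio of the reads of 2 genes within each library (y axis from 0) at 10, 20 and 40 min in WT (circles) and Tet2-KO (squares), with group means as lines. Ythdf2/Ythdf1 and Ythdf3/Ythdf1 are separate between the genotypes at 10 and 40 min, and Mettl14/Mettl3 overlaps at all times.

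Beyond the members, 22 further m6A genes were taken as a list, from the other subunits of the writer complex to other methyltransferases and readers, and 21 were tested. Rbm15b, single-exon and nested in Manf on the same strand, was listed at 0 in all libraries. All 21 were called higher in Tet2-KO on the spike-in scale (80.5% of all genes). On the share scale 11 were higher, 2 lower and 8 not called (28.6% and 27.9% of all genes), with a median log2 fold change of 0.057. Mat2a, which makes the methyl donor S-adenosylmethionine and is itself controlled through m6A, had the largest, 0.43 ± 0.018 (edgeR adjusted p = 1.15e-20). Trmt112, a partner of several methyltransferases, fell by 0.27 (SE 0.10, edgeR adjusted p = 0.0201), at 97 to 199 reads a library. The m6A reader Igf2bp1 rose by 0.27, Rbfox2, a splicing factor, by 0.26, Elavl1, which binds AU-rich RNA, by 0.19 and Hnrnpa2b1, a nuclear RNA-binding protein, by 0.17 (edgeR adjusted p 1.35e-16, 1.37e-19, 1.96e-11 and 4.28e-13). Virma, the large scaffold of the writer complex, was the other gene called lower, at −0.16 ± 0.023 (edgeR adjusted p = 3.85e-07), and is named after its value was seen. The 2 calls became 1 without WT replicate 3 or Tet2-KO replicate 2 of 40 min.

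As a description, the protein-coding genes whose log2 share followed each member most closely over the 18 libraries were listed by Pearson's r, which reflects labelling time and genotype together. Fto was closest to Tead1 (0.988), Zfp407 (0.984) and B4galt6 (0.980). Ythdf2 was closest to Eif3c (0.989), Ipo5 (0.981) and Rnf111 (0.977), and Ythdf3 to Nol8 (0.986), Ddx17 (0.984) and Srek1 (0.983). The first of the 3 was Rsbn1 for Ythdc1 (0.963), Kpna4 for Alkbh5 (0.950), Mt2 for Wtap (0.948), Bicd2 for Rbm15 (0.943) and Tmem201 for Ythdf1 (0.930). Mettl14 (0.872, Ibtk) and Mettl3 (0.813, Hspa1l), with smaller differences between groups, had the lowest values.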

How the data were processed

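Members, lists and tests were chosen with earlier results of these data known. Per the labels, the authors trimmed reads with Trimmomatic 0.39, aligned them with HISAT2 2.2.1 to mm10 and counted them per gene with HTSeq 0.12.4, and the deposited values are raw counts of reads. The overlap mode, feature type and strand setting are not given in the sources used here, so how reads were shared between genes was read from the counts. The 5 HTSeq summary rows were left out. Of reads, 13.2% to 16.9% had no feature, 2.32% to 2.50% were ambiguous and 5.24% to 5.99% were not unique.

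Of 54446 gene rows, 54409 were named from GENCODE M21. edgeR's filterByExpr (minimum count 10) kept 19910 genes, fitted with 1 mean per genotype and labelling time by edgeR 4.0.16 (quasi-likelihood test, Benjamini-Hochberg at 0.05, R 4.3.3). Library sizes were ERCC reads or gene reads with TMM factors. SE is the absolute log2 fold change over the root of F. Rates are least-squares slopes with a delta-method SE of their ratio. Ratios were tested in Python 3.11.15 by exact permutation, whose smallest p is 0.00025. All members are named. Of the further m6A genes up to 6 called on the share scale are named, and of neighbours those that overlap a member or start within 5 kb of it with reads above the filter. Up to 3 like genes were listed per member.

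Replicates of a group differed by more than counting noise (mean chi-square per gene 1.62 to 5.26). Precision is limited by 3 libraries a group. On simulated counts for 19910 genes the fit was tested for the mean contrast. Alternatives were DESeq2 1.42.0, abundant ERCC transcripts alone, other filters and scalings, a replicate block, single times and each library left out.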

Additional observations from a re-analysis of the deposited data

Results flagged for a closer look

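For 4 members the difference between Tet2-KO and WT itself differed between labelling times on the spike-in scale, by the interaction term of the edgeR fit. From 10 to 40 min the log2 fold change moved by −0.46 for Ythdf2, −0.39 for Rbm15, −0.36 for Fto and −0.32 for Ythdc1 (edgeR adjusted p = 0.00522, 0.0176, 0.0229 and 0.0461), beside a median of −0.29 over all genes tested. On the share scale Ythdf2 alone passed the same test, at −0.17 (edgeR adjusted p = 0.00707). Groups of 3 libraries were not searched for outlying samples.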

How the results depend on the processing

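The direction of all called members in the mean over the labelling times held under every alternative run on both scales, and the slope was larger in Tet2-KO for 10 of 10 members except from 10 and 20 min alone, where it was for 9 (Mettl3 at 0.991). With the plain total of gene reads, the members lower in share were 3 in place of 1 and the further m6A genes 6 in place of 2, and the members whose share difference fell from 10 to 40 min were 0 in place of 1. With each labelling time fitted alone, the members lower in share at 40 min were 2 in place of 1, as Alkbh5 was added. Leaving out each library in turn gave 1 to 8 members lower for the change from 10 to 40 min on the spike-in scale, 0 to 2 members lower in share at 10 min, and 1 to 3 further m6A genes lower in share. Fto over Alkbh5 reversed at 20 min alone (−0.033), where the exact permutation test cannot pass. The replicate numbers do not pair the samples: over 45 same-numbered pairs the deviations from the group means had a median correlation of 0.0055 (−0.218 to 0.185). The replicate block left 10 members higher on the spike-in scale and 5 higher and 1 lower in share, and left 3 of 4 calls of the change from 10 to 40 min. For the ratios the block was an exact sign-flip test on differences between libraries of the same time and replicate number. It left 2 of 3 ratios (Fto over Alkbh5 at 0.0521, sign-flip adjusted p). Under alternatives, 1510 values of single genes and ratios were tallied. They covered the mean over times, the change from 10 to 40 min, 40 against 10 min over both genotypes, slopes and ratios. Calls at single labelling times and within a genotype, several of which were lost as given above, were left out. Of the 1510, 1443 kept their direction and call or moved by less than 1 SE and 37 lost the call. Of the rest, 12 gained a call, 16 moved by more and 2 changed sign. The cause of these changes was not tested. Each group holds 3 dishes, from 1 line per genotype, and Mettl3, with the fewest reads, has the widest errors.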
